A study of Homo sapiens with 2 samples.

Results

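Genes of the ephrin and semaphorin signalling families were described in HK-2 cells, an immortalised human proximal tubule line, after infection with an adenovirus. The genes were the protein-coding genes with a symbol of the form EPHA, EPHB, EFNA, EFNB or SEMA plus a number, the plexin genes (PLXN), and NRP1 and NRP2. This gave 53 genes of the 58302 in the count tables, namely 14 Eph receptors, 8 ephrins, 20 semaphorins and 11 plexins and neuropilins. The read-through gene EFNA4-EFNA3 has a symbol of another form and was not counted in. Cells at passages 7 to 11 were grown in 10% fetal bovine serum and infected for 24 h, and polyadenylated RNA was sequenced as paired reads of 150 bp. One library was labelled Ad-Bmal1, from cells given a vector with the Bmal1 coding region, and its control was labelled Ad-GFP, from cells given a vector with green fluorescent protein. Both groups therefore carried an adenovirus, and no uninfected cells were among them. With 1 library per group there is no replicate check and no test, so every difference below is between these libraries and not shown to be one between conditions.

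Eph receptors are receptor tyrosine kinases whose ligands, the ephrins, sit on the surface of neighbouring cells. Ephrin-A proteins are held by a lipid anchor and ephrin-B proteins span the membrane, and both partners can signal on contact. Semaphorins are secreted, membrane-spanning or lipid-anchored ligands of the plexins, and neuropilins serve as co-receptors for the secreted class 3 semaphorins and for vascular endothelial growth factors. These families are known from axon guidance and vessel growth, and in epithelia they act in cell sorting, adhesion, migration and the shape of the actin skeleton.

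The libraries labelled Ad-Bmal1 and Ad-GFP held 20051735 and 20032652 counts. BMAL1 itself (ENSG00000133794) had 133 counts in the library labelled Ad-Bmal1 and 204 in the library labelled Ad-GFP, a ratio of 0.667 (95% counting interval 0.532 to 0.834), so the targeted gene went against the label. Whether the counts include vector transcripts is not known, and every direction below is that of the labels. Of 13 epithelial and proximal tubule markers 6 were measured, namely KRT8, PAX8, GGT1, KRT18, CDH2 and EPCAM. Their ratios ran from 0.667 for KRT18 to 1.44 for CDH2. LRP2 was at 0 in both libraries, CUBN, AQP1, SLC34A1 and CDH1 had at most 8 counts, and SLC5A2 and ANPEP at most 19. Measured markers of other cell types were 4 of 7 for fibroblasts and 1 of 6 for leukocytes. For podocytes 1 of 4 was measured, and for neurons and glia 3 of 7. Of the 8 endothelial markers, which are relevant because many of these receptors are known from vessels, KDR, TEK, VWF and EMCN were at 0 in both libraries. TIE1, the only one of the 8 that was measured, and that through the library labelled Ad-GFP alone, had 7 counts in the library labelled Ad-Bmal1 and 28 in the library labelled Ad-GFP.

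A gene was called measured if it reached 1 CPM (a count scaled to library size with TMM) in at least 1 library, where 1 CPM was worth 19.8 counts in the library labelled Ad-Bmal1 and 20.3 in the library labelled Ad-GFP. Of the 53 genes 38 were measured, and 2 of these, EPHA1 and EFNB3, reached 1 CPM through the library labelled Ad-GFP alone. The ratios of these 2 genes therefore had to lie below 1. Ratios divide the scaled count of the library labelled Ad-Bmal1 by that of the library labelled Ad-GFP, each with an exact 95% conditional binomial interval that covers counting error only. Most receptors had higher counts in the library labelled Ad-Bmal1, and more of the ligands had lower than higher counts there. In bulk RNA, fewer cells with a transcript and less of it per cell cannot be told apart. Of 15 measured receptors and co-receptors 13 had ratios above 1 (11 once a length trend described below was removed). Of these 15 genes 12 had intervals wholly above 1 against 2 below (8 against 2 with the trend removed). Of 23 measured ligands 8 had ratios above 1 and 15 below, and 5 intervals lay above 1 against 8 below (3 against 9 with the trend removed). Among all 13231 measured genes 6669 had ratios above 1 and 6562 below. Over all 38 genes 17 intervals lay above 1 and 10 below, where 23.8% of the 13231 measured genes had an interval above 1 and 21.6% an interval below.

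**Figure D1:**
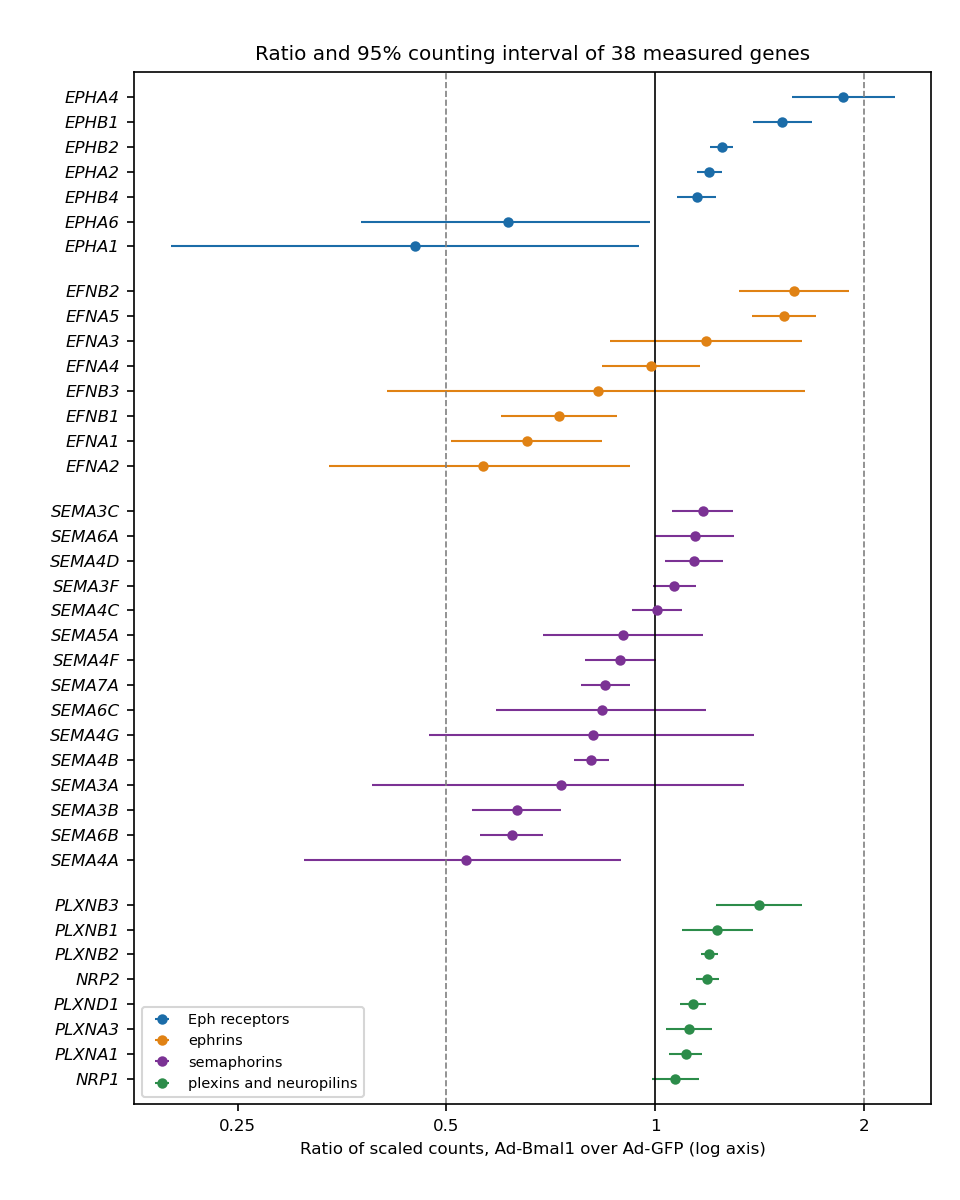
Ratio of scaled counts (log axis, the library labelled Ad-Bmal1 divided by the library labelled Ad-GFP) for the 38 measured genes, grouped by family and ordered by ratio, with 1 library per group. Points are ratios, bars are exact 95% counting intervals, the solid line is a ratio of 1 and the dashed lines are 2-fold, and all 8 measured plexins and neuropilins lie above 1 (PLXNA1 and PLXNA3 fall below it once a length trend is removed) while 10 of 15 semaphorins lie below.

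The differences were small. No gene of these families was at least 2-fold higher with an interval that excluded 1, a rule that 1.13% of all measured genes met. One, EPHA1, was at least 2-fold lower by the same rule, against 1.74% of all measured genes. It passed the filter through the library labelled Ad-GFP alone, so its ratio had to lie below 1. At 1.5-fold, 4 of the 38 genes were higher (4.41% of all measured genes) and 7 lower (4.9% of all). The 4 were EPHA4, EPHB1, EFNA5 and EFNB2, and the 7 were EPHA1, EPHA6, EFNA1, EFNA2, SEMA3B, SEMA4A and SEMA6B. Once the length trend was removed, 2 were higher (3.52% of all), EPHA4 and EFNB2, and 6 were lower (4.88% of all), EFNA1 no longer among them. The median log2 ratio of the 38 genes was 0.09, beside 0.00 over all measured genes.

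Counting intervals narrow with depth, so the share of intervals that exclude 1 depends on abundance. Among genes with 1000 or more counts in both libraries together, 13 of the 20 members had intervals above 1 and 3 below, beside 37.2% and 27.6% of the 5658 such genes in all. This restriction was chosen after seeing the data. Of the 13, PLXNA1, PLXNA3, PLXNB1, PLXND1 and SEMA4D had intervals that included 1 once the length trend described below was removed. That of SEMA4F, also among the 20, then lay below 1. In the plot of ratio against abundance the well-counted members above 0 are mainly receptors.

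**Figure D2:**
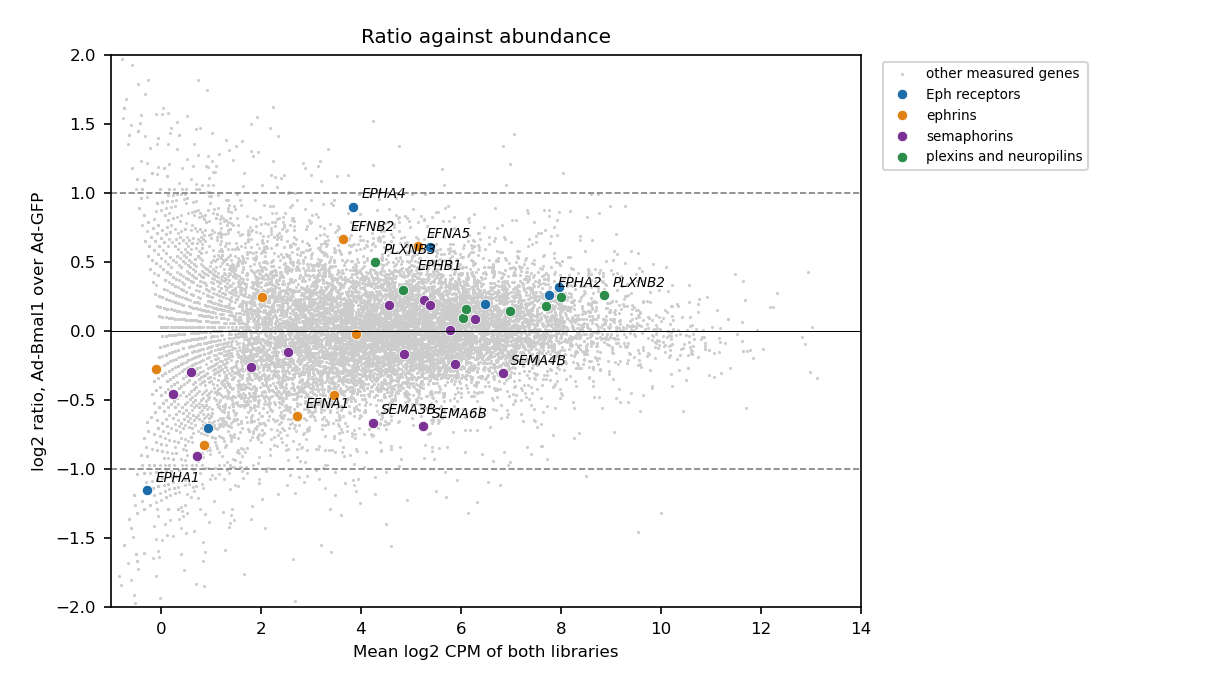
Log2 ratio (Ad-Bmal1 label over Ad-GFP label) against the mean log2 CPM of both libraries, each grey point 1 measured gene and each coloured point a member by family, with dashed lines at 2-fold. The 4 members called higher at 1.5-fold lie between the zero line and the upper dashed line, EPHA1 alone lies below the lower one, and 33 other genes fall outside the axes.

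Measured Eph receptors with more than 100 counts were all higher in the library labelled Ad-Bmal1. The pair with at most 50 counts was lower. The 5 with more than 100 counts were EPHA2, EPHA4, EPHB1, EPHB2 and EPHB4, and each had an interval above 1, as had 23.8% of all measured genes. The share was 37.2% among genes with 1000 or more counts, a level that EPHA4 alone of the 5 did not reach. EPHA6 and EPHA1, with at most 50 counts, had intervals below 1, as had 21.6% of all measured genes. This split by counts was not among the planned settings. The median log2 ratio of the 7 measured receptors was 0.26, and their summed counts were 13630 in the library labelled Ad-Bmal1 and 11261 in the library labelled Ad-GFP (ratio 1.24, 1.21 to 1.27).

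EPHA4, a receptor that binds ephrins of both types, had 389 counts in the library labelled Ad-Bmal1 and 213 in the library labelled Ad-GFP, a ratio of 1.87 (1.58 to 2.22). This was the highest ratio of the 38 genes, although its level per length was low, at 6.58 TPM in the library labelled Ad-Bmal1 and 3.46 in the library labelled Ad-GFP (ENSG00000116106, chromosome 2, 221418027 to 221574202, GRCh38). TPM here divides counts by the length of the gene's longest annotated coding transcript and scales each library to the same total. EPHB1, a receptor for ephrin-B ligands, had 1024 counts in the library labelled Ad-Bmal1 and 686 in the library labelled Ad-GFP, or 23.5 and 15.1 TPM in that order of libraries (ratio 1.53, 1.39 to 1.69; ENSG00000154928, chromosome 3, 134597801 to 135260467).

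EPHA2 is the main EphA receptor of many epithelia and binds ephrin-A1. It had 4737 counts in the library labelled Ad-Bmal1 and 4048 in the library labelled Ad-GFP, at 128 and 105 TPM in those libraries (ratio 1.20, 1.15 to 1.25; ENSG00000142627, chromosome 1, 16124337 to 16156087). EPHB2, a receptor for ephrin-B ligands known from cell sorting in the intestinal crypt, had 5540 counts in the library labelled Ad-Bmal1 and 4546 in the library labelled Ad-GFP (ratio 1.25, 1.20 to 1.30; ENSG00000133216, chromosome 1, 22710839 to 22921500). Its level was 55.0 TPM in the library labelled Ad-Bmal1 and 43.3 in the library labelled Ad-GFP, below that of EPHA2. That order rests on a long annotated transcript of EPHB2, since per length of coding sequence the level of EPHA2 was 0.924 times that of EPHB2 in the library labelled Ad-Bmal1 and 0.963 times in the library labelled Ad-GFP. EPHB4, the receptor of ephrin-B2 in veins, had 1899 counts in the library labelled Ad-Bmal1 and 1693 in the library labelled Ad-GFP (ratio 1.15, 1.07 to 1.23; ENSG00000196411, chromosome 7, 100802565 to 100827521), or 47.1 and 40.3 TPM in those libraries. Its locus overlaps that of SLC12A9 on the opposite strand, which had 720 and 661 counts in those libraries, and the same uncertainty of strand applies as for EPHA1 below.

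EPHA1, the founding member of the family, had 11 counts in the library labelled Ad-Bmal1 and 25 in the library labelled Ad-GFP (ratio 0.450, 0.200 to 0.949; ENSG00000146904, chromosome 7, 143390289 to 143408892). Its level was 0.351 TPM in the library labelled Ad-Bmal1 and 0.766 in the library labelled Ad-GFP. Its locus overlaps that of ZYX on the opposite strand, a gene with 6546 and 5054 counts in those libraries, and since no source gives the strand setting of the counts, those of EPHA1 are uncertain. EPHA6 had 30 counts in the library labelled Ad-Bmal1 and 50 in the library labelled Ad-GFP (ratio 0.614, 0.377 to 0.985). Both genes stood at 50 counts or fewer, and their intervals were wide. The ratio of EPHA1 had to lie below 1, since that gene passed the filter through the library labelled Ad-GFP alone.

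**Figure D3:**
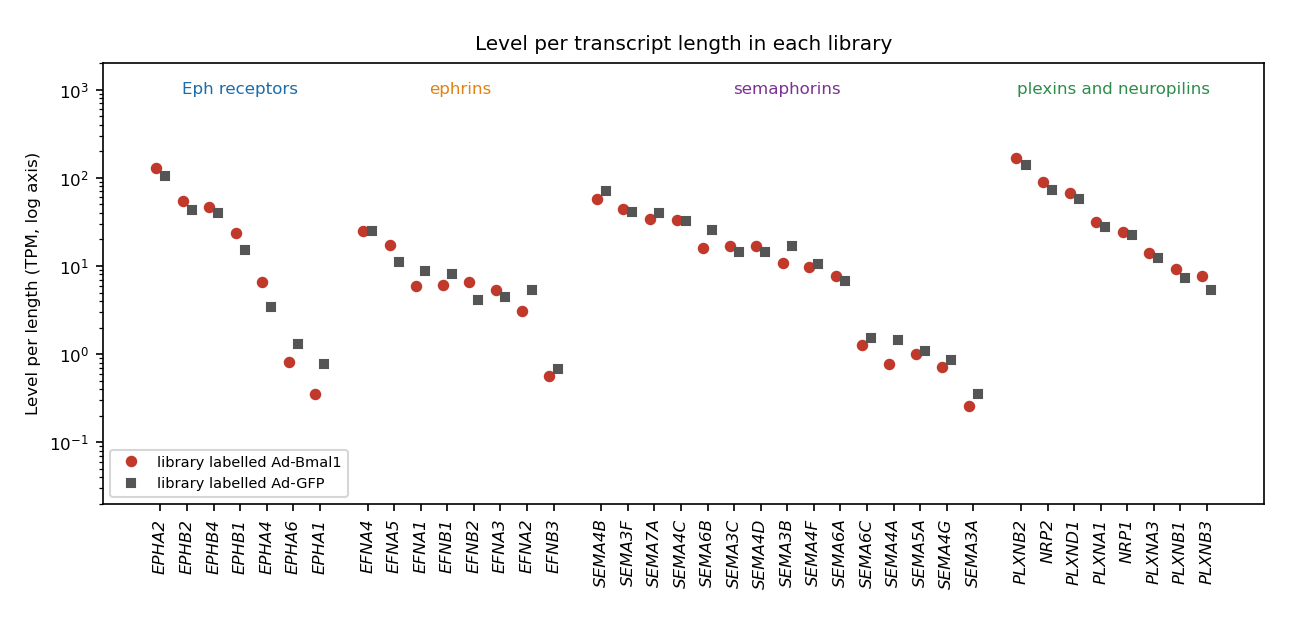
Level per length (TPM on the longest annotated coding transcript, log axis) of the 38 measured genes, ordered by level within each family, with 1 library per group. Circles are the library labelled Ad-Bmal1 and squares the library labelled Ad-GFP, and PLXNB2 and EPHA2 stand highest at 170 and 128 TPM in the library labelled Ad-Bmal1.

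The ephrins, all 8 of which were measured, went in both directions. EFNA5 and EFNB2 had intervals above 1, EFNA1, EFNA2 and EFNB1 had intervals below 1, and the other 3 had intervals that included 1. The median log2 ratio was -0.15, though it was 0.30 over ephrins that reached 10 CPM. Both the lipid-anchored and the membrane-spanning type held genes of either direction.

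EFNB2, which encodes the ephrin-B2 ligand of EPHB4 and marks arteries in development, had 310 counts in the library labelled Ad-Bmal1 and 200 in the library labelled Ad-GFP (ratio 1.59, 1.32 to 1.90; ENSG00000125266, chromosome 13, 106489731 to 106535662), or 6.66 and 4.12 TPM in those libraries. EFNA5, a lipid-anchored ligand of EphA receptors, had 869 counts in the library labelled Ad-Bmal1 and 580 in the library labelled Ad-GFP (ratio 1.53, 1.38 to 1.71; ENSG00000184349, chromosome 5, 107376889 to 107670895). It stood at 17.5 TPM in the library labelled Ad-Bmal1 and 11.2 in the library labelled Ad-GFP. Higher values of EPHB4 and EFNB2, a receptor and its ligand, thus occurred in the same library, with the uncertainty of strand for EPHB4 given above. Not all ephrin-B genes went this way. EPHB1 and EPHB2, receptors for ephrin-B ligands, were higher in that library, while EFNB1 was lower (0.728, 0.600 to 0.881).

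EFNA1, the ligand with which EPHA2 is most often paired, went the other way from its receptor. It had 106 counts in the library labelled Ad-Bmal1 and 166 in the library labelled Ad-GFP (ratio 0.653, 0.507 to 0.839; ENSG00000169242, chromosome 1, 155127460 to 155134857), or 5.91 and 8.88 TPM in those libraries. EFNB1, the X-linked ephrin-B gene mutated in craniofrontonasal syndrome, had 187 counts in the library labelled Ad-Bmal1 and 263 in the library labelled Ad-GFP (ratio 0.728, 0.600 to 0.881; ENSG00000090776, chromosome X, 68828997 to 68842147), or 6.05 and 8.17 TPM in those libraries. EFNA2 had 27 counts in the library labelled Ad-Bmal1 and 49 in the library labelled Ad-GFP (ratio 0.564, 0.339 to 0.920). EFNA4 had the highest level of the ephrins per length of the longest transcript, and was nearly level between the libraries with 296 counts in the one labelled Ad-Bmal1 and 307 in the one labelled Ad-GFP (ratio 0.987, 0.838 to 1.16; 25.1 and 25.0 TPM; ENSG00000243364, chromosome 1, 155063731 to 155069553), and above 1 once the length trend was removed (1.05). Per length of coding sequence EFNA5 stood above EFNA4, at 60.1 TPM in the library labelled Ad-Bmal1 and 37.9 in the library labelled Ad-GFP, against 22.6 and 22.1 TPM for EFNA4 in those libraries. EFNA3 (ratio 1.19, 0.862 to 1.63) and EFNB3 (0.828, 0.410 to 1.65) were not distinguishable from 1 at 88 and 17 counts in the library labelled Ad-Bmal1 and 76 and 21 in the library labelled Ad-GFP. Since EFNB3 passed the filter through the library labelled Ad-GFP alone, its ratio had to lie below 1.

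The measured plexins shared a direction before the length trend was removed. All 6 that were measured had intervals above 1, with ratios between 1.11 for PLXNA1 and 1.41 for PLXNB3. Such an interval was found for 23.8% of all measured genes, and for 37.2% of those with 1000 or more counts. Once the length trend was removed, 2 plexins alone kept such an interval, and PLXNA1 and PLXNA3 fell below 1. The summed plexin counts were 19667 in the library labelled Ad-Bmal1 and 17203 in the library labelled Ad-GFP (ratio 1.17, 1.15 to 1.19). With the neuropilins the median log2 ratio was 0.22 over 8 genes. None reached 1.5-fold.

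PLXNB2, a receptor of class 4 semaphorins such as SEMA4C, had the highest level of the 53 genes per length of the longest transcript. It had 10087 counts in the library labelled Ad-Bmal1 and 8616 in the library labelled Ad-GFP, or 170 and 139 TPM in those libraries (ratio 1.20, 1.16 to 1.23; ENSG00000196576, chromosome 22, 50274979 to 50307627). PLXND1, the receptor of SEMA3E in vessels, had 4414 counts in the library labelled Ad-Bmal1 and 3977 in the library labelled Ad-GFP, or 66.8 and 57.7 TPM (ratio 1.14, 1.09 to 1.19; ENSG00000004399, chromosome 3, 129555175 to 129606818). PLXNA1, which pairs with NRP1 to receive class 3 semaphorins, had 2644 counts in the library labelled Ad-Bmal1 and 2444 in the library labelled Ad-GFP (ratio 1.11, 1.05 to 1.17; 31.3 and 27.8 TPM; ENSG00000114554, chromosome 3, 126988594 to 127037392).

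The remaining plexins were less abundant. PLXNB3, a receptor of SEMA5A, had 460 counts in the library labelled Ad-Bmal1 and 333 in the library labelled Ad-GFP, the largest ratio of the family (1.41, 1.23 to 1.63). PLXNB1, the receptor of SEMA4D, had 630 counts in the library labelled Ad-Bmal1 and 524 in the library labelled Ad-GFP (ratio 1.23, 1.09 to 1.38). PLXNA3, which with NRP2 receives SEMA3F, had 1432 counts in the library labelled Ad-Bmal1 and 1309 in the library labelled Ad-GFP (ratio 1.12, 1.04 to 1.21). The PLXNA3 locus overlaps that of LAGE3 on the opposite strand, which had 1743 and 1973 counts in those libraries.

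Of the neuropilins, NRP2 was the more abundant. NRP2, a co-receptor for SEMA3F and for VEGF-C, had 5536 counts in the library labelled Ad-Bmal1 and 4759 in the library labelled Ad-GFP, or 89.2 and 73.6 TPM (ratio 1.19, 1.15 to 1.24; ENSG00000118257, chromosome 2, 205681990 to 205798133). NRP1, a co-receptor for SEMA3A and VEGF-A, had 1344 counts in the library labelled Ad-Bmal1 and 1285 in the library labelled Ad-GFP, and its interval reached 1 (ratio 1.07, 0.991 to 1.16). Per length of coding sequence PLXNB2 was at 0.923 times the level of NRP2 in the library labelled Ad-Bmal1 and 0.917 times in the library labelled Ad-GFP, so the order of these genes also rests on the transcript chosen.

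Semaphorins were the family with most values below 1. Of 15 measured genes 10 had ratios below 1 and 5 above. There were 5 intervals below 1 and 3 above, beside 21.6% and 23.8% of all measured genes. Once the length trend was removed, 6 intervals lay below 1 and 1 above, beside 21.0% and 23.2%. The median log2 ratio was -0.24, and the summed counts were 9680 in the library labelled Ad-Bmal1 and 10870 in the library labelled Ad-GFP (ratio 0.911, 0.887 to 0.937). No semaphorin was 1.5-fold higher and 3 were 1.5-fold lower, beside 4.41% and 4.9% of all measured genes.

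SEMA6B, a membrane-spanning ligand known to bind PLXNA4, had 593 counts in the library labelled Ad-Bmal1 and 977 in the library labelled Ad-GFP (ratio 0.621, 0.560 to 0.689; ENSG00000167680, chromosome 19, 4542593 to 4559808), or 16.0 and 25.2 TPM. PLXNA4 itself had 0 counts in the library labelled Ad-Bmal1 and 2 in the library labelled Ad-GFP. SEMA3B, a secreted semaphorin from a region of chromosome 3 often lost in lung cancer, had 297 counts in the library labelled Ad-Bmal1 and 481 in the library labelled Ad-GFP (ratio 0.632, 0.545 to 0.732; ENSG00000012171, chromosome 3, 50267558 to 50277546). SEMA4A, known from immune cells and retina, had 24 counts in the library labelled Ad-Bmal1 and 46 in the library labelled Ad-GFP (ratio 0.534, 0.312 to 0.893). These 3 were the semaphorins lower by at least 1.5-fold.

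The most abundant semaphorins per length differed less. SEMA4B had 2042 counts in the library labelled Ad-Bmal1 and 2583 in the library labelled Ad-GFP, or 57.5 and 69.9 TPM (ratio 0.809, 0.763 to 0.858; ENSG00000185033, chromosome 15, 90160604 to 90229679). SEMA7A, the lipid-anchored semaphorin that also binds integrins, had 1084 counts in the library labelled Ad-Bmal1 and 1308 in the library labelled Ad-GFP (ratio 0.848, 0.782 to 0.920; 34.5 and 39.9 TPM; ENSG00000138623, chromosome 15, 74409289 to 74433958). Its plexin receptor PLXNC1 had 7 counts in either library. SEMA3F, a secreted ligand of NRP2, had 1584 counts in the library labelled Ad-Bmal1 and 1521 in the library labelled Ad-GFP (ratio 1.07, 0.993 to 1.14; 44.7 and 41.2 TPM; ENSG00000001617, chromosome 3, 50155045 to 50189075). SEMA4C, a ligand of PLXNB2, had 1095 counts in the library labelled Ad-Bmal1 and 1113 in the library labelled Ad-GFP (ratio 1.01, 0.925 to 1.10; 33.1 and 32.3 TPM; ENSG00000168758, chromosome 2, 96859716 to 96870757), and its direction changed with the scaling used.

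The 3 semaphorins with intervals above 1 had small ratios. SEMA3C, a secreted ligand known from heart outflow development, had 820 counts in the library labelled Ad-Bmal1 and 716 in the library labelled Ad-GFP (ratio 1.17, 1.06 to 1.30). SEMA6A had 499 counts in the library labelled Ad-Bmal1 and 448 in the library labelled Ad-GFP (ratio 1.14, 1.001 to 1.30). SEMA4D, the ligand of PLXNB1, had 882 counts in the library labelled Ad-Bmal1 and 793 in the library labelled Ad-GFP (ratio 1.14, 1.03 to 1.25), so this ligand and its receptor PLXNB1 were both higher in the same library. Once the length trend was removed, the intervals of SEMA4D (1.075, 0.976 to 1.185) and PLXNB1 (1.11, 0.987 to 1.25) included 1, as did that of SEMA6A. The other 5 semaphorins, all with ratios below 1, had intervals that included 1. SEMA4F had 541 counts in the library labelled Ad-Bmal1 and 621 in the library labelled Ad-GFP (ratio 0.891, 0.793 to 1.002), and SEMA5A 109 and 124 counts in those libraries (0.899, 0.689 to 1.17). SEMA6C had 63 counts in the library labelled Ad-Bmal1 and 77 in the library labelled Ad-GFP (0.837, 0.590 to 1.18). SEMA4G had 27 counts in the library labelled Ad-Bmal1 and 34 in the library labelled Ad-GFP (0.813, 0.472 to 1.39), and its locus overlaps MRPL43 on the opposite strand, which had 4113 and 4216 counts in those libraries. SEMA3A, the ligand of NRP1, had 20 counts in the library labelled Ad-Bmal1 and 28 in the library labelled Ad-GFP (0.731, 0.390 to 1.35).

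Ratio and transcript length moved together across all measured genes, and the members of these families differ in length. The measured receptors had a median longest coding transcript of 6377 bases and the ligands one of 3807, beside 3227 bases over all measured genes. When a smooth trend of the log2 ratio on length was removed, 11 of the 38 intervals lay above 1 and 11 below, beside 23.2% and 21.0% of all measured genes. The intervals of PLXNA1, PLXNA3, PLXNB1, PLXND1, SEMA4D and SEMA6A then included 1, that of SEMA4F lay below 1, and the ratios of PLXNA1 and PLXNA3 became 0.971 and 0.964. Among the 11 above 1 were EPHA4 (1.73, 1.46 to 2.06), EPHB1 (1.48, 1.35 to 1.64), EFNA5 (1.46, 1.32 to 1.63), EFNB2 (1.53, 1.28 to 1.83) and PLXNB3 (1.31, 1.13 to 1.51). Among the 11 below 1 were SEMA6B (0.612, 0.552 to 0.678), SEMA3B (0.638, 0.550 to 0.739) and EFNA1 (0.690, 0.536 to 0.886). After removal, the median log2 ratio was 0.13 for the receptors and -0.27 for the ligands.

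**Figure D4:**
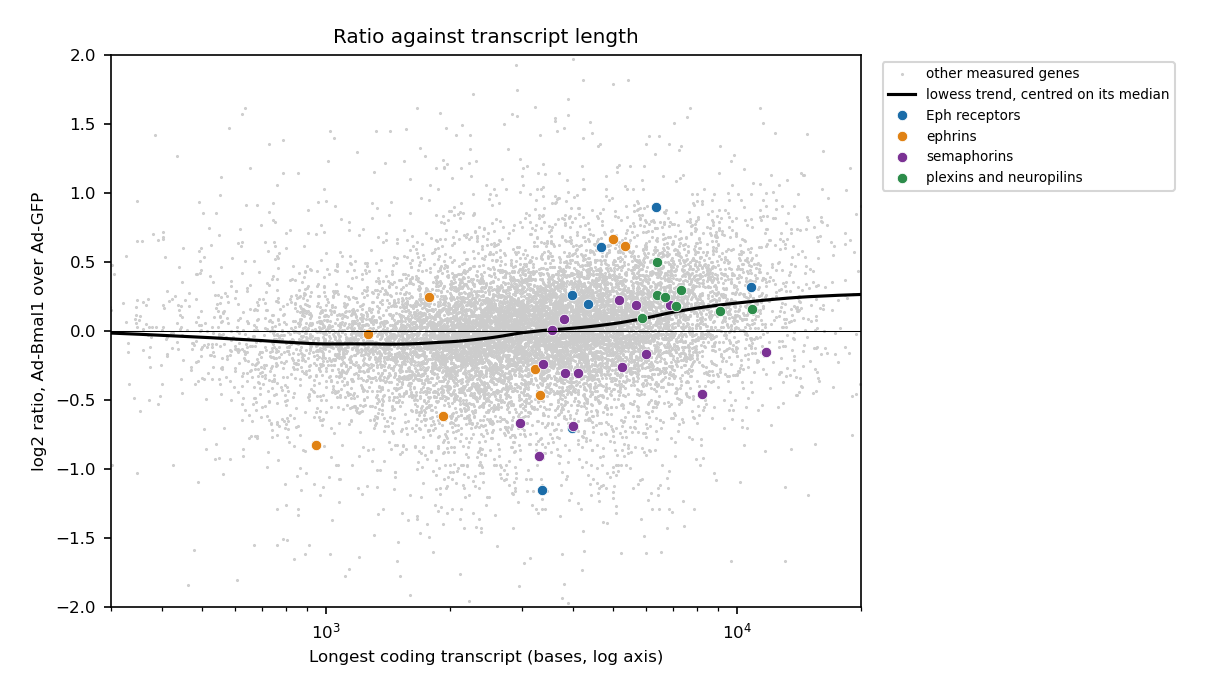
Log2 ratio (Ad-Bmal1 label over Ad-GFP label) against the longest annotated coding transcript in bases (log axis), each grey point 1 measured gene, with members coloured by family and the black line the smooth trend that was removed. The plexins and neuropilins lie among the longer transcripts where the trend is above 0, several ephrins lie among the shorter ones, and 121 other genes fall outside the axes or have no length.

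The 15 genes that were not measured had at most 16 counts in a library. They were EPHA3, EPHA5, EPHA7, EPHA8, EPHA10, EPHB3, EPHB6, PLXNA2, PLXNA4, PLXNC1, SEMA3D, SEMA3E, SEMA3G, SEMA5B and SEMA6D. EPHA8, SEMA3D and SEMA6D were at 0 in both libraries, where a count of 0 allows up to 3 counts, which is worth 0.151 CPM in the library labelled Ad-Bmal1 and 0.148 CPM in the library labelled Ad-GFP. The other 12 had 1 or more counts. EPHB3, the highest of them, had 16 counts in the library labelled Ad-Bmal1 and 10 in the library labelled Ad-GFP. Known partners of measured genes were among those without a measurable level, such as PLXNA4 for SEMA6B and SEMA3E for PLXND1.

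Members that lie near each other on the genome did not all have like ratios. On chromosome 1, EFNA4, EFNA3 and EFNA1 follow each other with gaps of 9.32 and 39.9 kb, with ratios of 0.987, 1.19 and 0.653. On chromosome 3, SEMA3F and SEMA3B are 78.5 kb apart, and their ratios were 1.07 and 0.632. On chromosome X, PLXNB3 and PLXNA3 are 679 kb apart, and both had intervals above 1.

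BMAL1 and its partner CLOCK bind the E-box CACGTG, so promoters of the members were searched for this motif, which reads the same on both strands. RefSeq windows of 250 bases before to 50 bases after each annotated start (GRCh38.p14) were present for 47 of the 53 genes. CACGTG was in a window of 4 of the 47 (8.51%), beside 2396 of 27305 genes with a window (8.77%). The share in the members was thus near that of all genes. The 4 were EPHA8, SEMA3E, SEMA4D and SEMA6D, of which SEMA4D alone was measured. The shorter pattern CANNTG, which contains CACGTG, was in a window of 31 members (66.0%), beside 73.1% of all genes. The windows below are those of EPHA4 and SEMA3B, which among members with a window had the interval bounds farthest above and below 1, and of SEMA4D. They are read 5′ to 3′ on the gene's strand with each CANNTG in capitals, and for genes with several windows the one nearest the GENCODE start is given.
EPHA4: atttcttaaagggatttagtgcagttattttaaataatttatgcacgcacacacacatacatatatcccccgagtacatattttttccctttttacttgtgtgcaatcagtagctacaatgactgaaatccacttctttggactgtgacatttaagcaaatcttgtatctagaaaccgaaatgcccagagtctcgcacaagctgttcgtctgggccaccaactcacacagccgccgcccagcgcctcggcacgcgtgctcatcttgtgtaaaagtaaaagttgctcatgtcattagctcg
SEMA3B: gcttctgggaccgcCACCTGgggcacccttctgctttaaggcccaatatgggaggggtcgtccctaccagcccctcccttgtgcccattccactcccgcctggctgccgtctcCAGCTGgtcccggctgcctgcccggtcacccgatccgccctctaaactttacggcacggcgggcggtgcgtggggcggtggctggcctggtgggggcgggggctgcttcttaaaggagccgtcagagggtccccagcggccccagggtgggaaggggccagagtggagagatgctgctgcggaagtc
SEMA4D: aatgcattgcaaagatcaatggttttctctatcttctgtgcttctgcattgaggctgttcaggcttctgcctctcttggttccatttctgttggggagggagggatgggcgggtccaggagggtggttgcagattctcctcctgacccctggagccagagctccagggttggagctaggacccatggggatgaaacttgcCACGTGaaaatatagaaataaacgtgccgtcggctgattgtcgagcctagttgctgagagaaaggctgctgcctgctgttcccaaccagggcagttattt

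The EPHA4 window (chr2:221574153-221574452, minus strand) holds no CANNTG, and neither does the other annotated window of that gene. The SEMA3B window (chr3:50267402-50267701, plus strand), 1 of 5 for the gene, holds 2, neither of which is CACGTG. The SEMA4D window (chr9:89495607-89495906, minus strand), the only one for the gene, holds 1, which is CACGTG. It begins 50 bases before the RefSeq start of that window, which lies 2474 bases from the GENCODE start of the gene. A match is a description of the sequence and not a binding site, and the absence of a match says only that these letters are not in the window.

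Genes that carry the signal of these receptors inside the cell were described from a list of 75, of which 67 were measured. None met the 2-fold rule in either direction, beside 1.13% of all measured genes higher and 1.74% lower. Intervals of 31 lay above 1 and of 10 below, beside 23.8% and 21.6% of all measured genes, with a median log2 ratio of 0.15. Many of the listed genes were well counted, and among genes with 1000 or more counts these shares were 37.2% and 27.6%. Once the length trend was removed 24 lay above 1 and 10 below, beside 23.2% and 21.0%, and the median was 0.05. FLNA, the actin cross-linker filamin A, had 179729 counts in the library labelled Ad-Bmal1 and 136639 in the library labelled Ad-GFP (ratio 1.35, 1.34 to 1.36). The FLNA ratio was 1.19 once the length trend was removed. CFL1, the actin-severing protein cofilin, had 22500 counts in the library labelled Ad-Bmal1 and 23476 in the library labelled Ad-GFP (ratio 0.981, 0.963 to 0.999), and RHOA, the GTPase that drives contraction, 12105 and 12575 counts in those libraries (0.985, 0.961 to 1.01). CFL1 and RHOA changed direction when the length trend was removed, to ratios of 1.04 each. DPYSL3, a collapsin response mediator, had a ratio of 0.964 (0.939 to 0.990), which was 0.916 with the length trend removed.

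Chosen after their values were seen, the only list members past 1.5-fold with an interval excluding 1 were DPYSL5 and RND1. DPYSL5, another collapsin response mediator, had 2326 counts in the library labelled Ad-Bmal1 and 1534 in the library labelled Ad-GFP (ratio 1.55, 1.45 to 1.66). RND1, a GTPase that binds plexins, had 45 counts in the library labelled Ad-Bmal1 and 70 in the library labelled Ad-GFP (0.658, 0.442 to 0.970). Both fell short of 1.5-fold once the length trend was removed, at ratios of 1.49 for DPYSL5 and 0.700 for RND1. Among growth factors and receptors that share the neuropilins, 6 of 10 were measured, and KDR and FLT1, the main VEGF receptors, had at most 1 count. FLT4, the VEGF-C receptor of lymphatic vessels and chosen after its value was seen, had 49 counts in the library labelled Ad-Bmal1 and 90 in the library labelled Ad-GFP (ratio 0.557, 0.385 to 0.798). VEGFA had 2469 counts in the library labelled Ad-Bmal1 and 2860 in the library labelled Ad-GFP (ratio 0.883, 0.837 to 0.933). SDC2, a proteoglycan, had a ratio of 1.17 (1.12 to 1.22), VEGFC one of 1.08 (0.998 to 1.17) and VEGFB one of 0.943 (0.855 to 1.04), which was 1.01 once the length trend was removed.

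The other classical guidance families, slits, Robo receptors, netrins, their receptors and related genes, were also mixed. Of 30 listed genes 15 were measured, with 7 intervals above 1 and 3 below, beside 23.8% and 21.6% of all measured genes, and a median log2 ratio of 0.25. Once the length trend was removed, 4 intervals lay above 1 and 3 below, and the median was 0.11. ROBO4, an endothelial Robo receptor, met the 2-fold rule with 24 counts in the library labelled Ad-Bmal1 and 64 in the library labelled Ad-GFP (ratio 0.384, 0.230 to 0.622). The endothelial marker TIE1 had 7 counts in the library labelled Ad-Bmal1 and 28 in the library labelled Ad-GFP, and since it passed the filter through the Ad-GFP label alone its ratio had to lie below 1. The part of endothelial transcripts in the ROBO4 and FLT4 values was not tested. The most counted were SRGAP2 (ratio 1.19, 1.11 to 1.28) and SRGAP1 (1.21, 1.09 to 1.33), which act downstream of Robo receptors, NEO1, a receptor for netrins and repulsive guidance molecules (1.20, 1.09 to 1.32), and ROBO3, with 324 counts in the library labelled Ad-Bmal1 and 494 in the library labelled Ad-GFP (0.671, 0.582 to 0.774). Without the length trend the ratios were 1.11 for SRGAP2, 1.003 for SRGAP1, 1.08 for NEO1 and 0.653 for ROBO3. At 1.5-fold with an interval that excluded 1, 3 of the 15 were higher (4.41% of all measured genes) and 1, ROBO4, lower (4.9%). The 3 were chosen after their values were seen. NTN1, the secreted guidance cue netrin-1, had 161 counts in the library labelled Ad-Bmal1 and 94 in the library labelled Ad-GFP (1.75, 1.35 to 2.29). The others were SLIT3 (1.66, 1.37 to 2.01) and RGMB (1.59, 1.12 to 2.28). With the length trend removed the ratios were 1.64 for NTN1, 1.44 for SLIT3 and 1.55 for RGMB.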

How the data were processed

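Polyadenylated RNA of 2 libraries, 1 per group, was sequenced. The deposited values are whole-number counts per Ensembl gene with no scaling by the authors visible in them. The submitters' processing notes name HISAT2 and the GRCh38 (hg38) build. How reads were counted, by which annotation and on which strand, is not given in the sources used here. Sample titles gave the groups.

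Symbols came from a table of gene names, and positions and lengths from GENCODE release 29 on GRCh38, which held 99.5% of the identifiers. TMM scaling used edgeR 4.0.16 with R 4.3.3. A quasi-likelihood test needs replicates, so none was run and ratios carry exact 95% conditional binomial (Clopper-Pearson) intervals that cover counting error only. Without molecular identifiers, reads are not independent molecules, and variation between cultures is unknown. Calls at 2-fold needed an interval that excluded 1. TPM used all genes with a length. The length trend was a lowess fit (fraction 0.3) in statsmodels 0.14.6. Other steps used Python 3.11.15, pandas 2.3.3 and scipy 1.17.1. The intervals were tested on simulated counts with counting error alone, which says nothing on duplicate reads or variation between cultures.

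The members and gene lists were chosen with earlier results of these data known. Full values were given for members past the 2-fold rule and up to 4 per family with the highest TPM, counts and ratios for the others, and for each further list the members past the rule and the 4 most counted. EPHA4, EFNB2, SEMA3B and SEMA6B fell outside this rule and were given in more detail after their values were seen. The alternatives included scaling by total counts, by DESeq2 1.42.0 size factors, by upper quartiles, by totals without mitochondrial or the 20 most abundant genes and by protein-coding genes alone, other filters, folds and lengths, thinning, and a prior count of 2.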

Additional observations from a re-analysis of the deposited data

How the results depend on the processing

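No paired analysis was possible because each group has 1 library, and no library could be left out. Under the 5 other scalings, thinning and a prior count of 2, 1 member was lower by 2-fold and 0 higher as reported, the 5 scalings each gave 16 intervals above 1 and 11 below, and SEMA4C alone among the members changed direction, at log2 ratios of -0.02, -0.01 and -0.01 under total counts, DESeq2 size factors and totals without the most abundant genes. With no filter the Eph receptor median was -0.11, since receptors with few counts entered. A minimum of 10 CPM left 0 members lower by 2-fold and 5 intervals below 1, and the ephrin median was 0.30. At 1.5-fold 4 members were higher and 7 lower, and at 4-fold, or with the interval wholly beyond 2-fold, 0 were lower. With the length trend removed 2 members were higher and 6 lower at 1.5-fold, a count added after seeing the data, 11 intervals lay above 1, and the medians were 0.17 for Eph receptors and 0.084 for plexins and neuropilins. Over genes with 1000 or more counts, chosen after seeing the data, 0 members were lower by 2-fold, 3 intervals lay below 1 and the ephrin median, over 1 gene, was 0.62. With the median coding transcript length EPHA2 stood at 0.793 times EPHB2 in the library labelled Ad-Bmal1 and 0.826 times in the library labelled Ad-GFP, and PLXNB2 at 3.84 and 3.82 times NRP2. With coding sequence length these were 0.924 and 0.963 times, and 0.923 and 0.917 times. The pattern CANNTG was in promoters of 31 members in place of 4 for CACGTG. The cause of these shifts was not tested beyond what each setting changes by its construction. Depth limits the 15 members that were not measured and those with under 100 counts.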
